A study of Mus musculus with 12 samples.

Results

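Chronic colitis induced with dextran sulfate sodium (DSS) was compared with untreated colon in mice. The comparison sets 3 libraries titled DSS against 3 titled Control, 6 of the 12 libraries and 2 of the 4 groups of the series. Control mice were given water (ddH2O in the labels). The DSS mice drank DSS at 2.5% over 5 days, followed by 5 days on water, and completed 3 such rounds. The remaining 6 libraries, from mice given DSS with a herbal decoction, are not analysed here. The labels give colon as the source and state no strain, age or sex. Whether the 3 libraries of a group are 3 mice is not stated, and the p-values reflect variation between libraries, part of which may be technical.

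DSS is a sulfated polysaccharide that damages the colonic epithelium, so that luminal bacteria reach the tissue below it. Repeated rounds separated by plain water are used to model long-standing colitis, in which ulceration, regrowth of crypts, leukocyte infiltration and deposition of extracellular matrix occur side by side. The lining itself is made of absorptive colonocytes, which take up salt, water and short-chain fatty acids, of mucus-secreting and antimicrobial secretory cells, and of rare chemosensory tuft cells.

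The free-text description of Control replicate 3 names the DSS course, and that of DSS replicate 3 names the lower decoction dose, both in conflict with the titles and treatment labels, which were followed. The deposited list is also a selection: each of its 912 features differed between the group means by at least 1.87-fold, so the direction and size of a change can be described but the number of calls cannot serve as evidence that the groups differ. Adjusted p-values of single genes below were computed on that same selection and cannot serve as such evidence either. Expression is in FPKM, that is, fragments divided by gene length and by sequencing depth. Library totals recovered from the spacing of low values ran from 14390000 to 16660000 fragments in Control and from 15410000 to 19160000 in DSS. In limma's moderated test on log2(FPKM + 1), with Benjamini-Hochberg adjustment over all 912 features, 96.9% of features (884) passed at 0.05, of which 714 (78.3% of the list) were higher and 170 (18.6%) lower in DSS. The 3 DSS values did not overlap the 3 Control values in 95.2% of features. These shares are the background for every count below, and the median log2 difference of 0.67 over all features is the background for every median. Genes named for the largest differences were picked among called features without overlap. In those genes, passing and lack of overlap were conditions of naming and are given as description only. Without Control replicate 3 and DSS replicate 3, 557 features were higher and 98 lower. With groups taken from the description text instead, 3 were higher and 5 lower. That fit counted Control replicate 3 as DSS and left out DSS replicate 3, so it also holds fewer libraries. Subtracting from each library its median over the listed features (called centring here) lowered every difference by 0.65 on the log2 scale and left 108 features higher and 234 lower. In all, 248 rises were smaller than that shift. The source label was checked against markers. Of 25 markers of absorptive colonocytes 8 were on the list, and their summed level was 1268 to 1994 FPKM in Control. None of 8 pan-epithelial markers, 12 enteroendocrine markers, 11 enteric neuron and glia markers or 6 skeletal muscle markers was on the list, so these cells could not be checked. Markers of pancreas (1 of 9), small intestine (1 of 9) and adipose tissue (1 of 7) were listed too, each lower in DSS. Sycn of pancreas had 1528, 600.2 and 465 FPKM in Control and 187, 69.9 and 204 FPKM in DSS (log2 difference −2.43, limma adjusted p = 0.00736). Fabp6 of small intestine had 4.56 ± 1.57 FPKM in Control and 2.04 ± 0.322 FPKM in DSS (log2 difference −0.83). Fabp6 did not pass with Control replicate 2, Control replicate 3 or DSS replicate 1 left out (highest limma adjusted p = 0.0628). Lep of adipose tissue had 0.37 ± 0.131 FPKM in Control and 0.08 ± 0.106 FPKM in DSS (log2 difference −0.34). The 1 listed of 5 erythrocyte markers, Hba-a2, and the 1 listed of 15 squamous epithelium markers, Krt14, were higher in DSS (log2 differences 0.94 and 0.93). Hba-a2 had 0.18 to 0.63 FPKM in Control and 0.86 to 3.97 FPKM in DSS. Of Sycn, Fabp6 and Lep, only Sycn passed without Control replicate 3 and DSS replicate 3. The part of other tissue in any result was not tested. In whole tissue, fewer cells of a type and less RNA per cell cannot be told apart.

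Low values made up a large part of the list. A feature is called low-FPKM here if it reached 1 FPKM in fewer than 3 of the 6 libraries, which held for 340 of the 912. Of these, 92.9% passed (316), 259 of them higher (76.2%) and 57 lower (16.8%) in DSS, and 91.5% showed no overlap between the groups, with a median log2 difference of 0.41 against 0.96 for the other 572 features. The low-FPKM median lies below 0 (−0.24) after centring. The values rest on few fragments: by the recovered totals, the 337 low-FPKM features with an annotated length had a median of 41.0 fragments per library in their higher group and 10.9 in their lower group, and 46 of these had fewer than 3 in the lower group. The log2(FPKM + 1) scale compresses such features. With 0.1 in place of 1 their median difference was 1.17, against 1.24 for the other 572 features. Direction varied little with level up to 100 FPKM: 76.6% of the 184 features with a mean under 0.5 FPKM were higher in DSS, as were 82.1% of the 184 between 3 and 10 FPKM. Of the 34 features at 100 FPKM or more, 58.8% were higher and 38.2% lower.

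**Figure D1:**
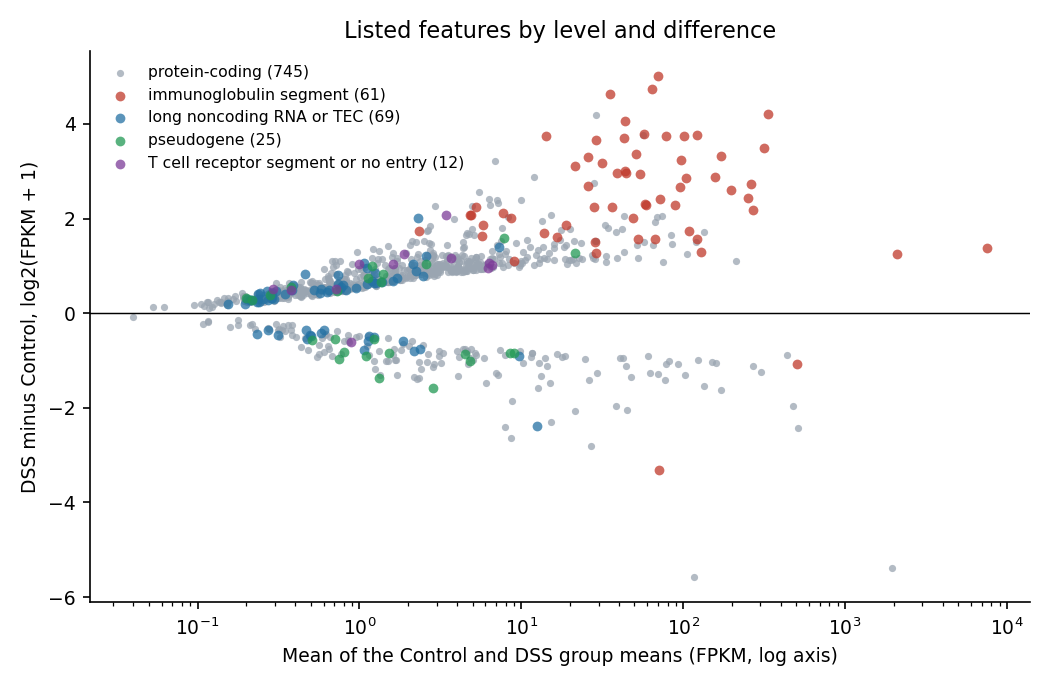
Each point is 1 of the 912 listed features, with the mean of the Control and DSS group means in FPKM on a log axis and the difference DSS minus Control on the log2(FPKM + 1) scale, coloured by gene class. No feature lies at a difference of 0 because the list is a selection; immunoglobulin segments (red) reach the highest rises, long noncoding RNAs (blue) and pseudogenes (green) lie mostly below 10 FPKM.

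Gene classes differed in direction. The list held 745 protein-coding genes, of which 583 rose and 138 fell (median 0.67). Long noncoding RNAs and loci of the annotation's TEC class, for which experimental evidence is still needed, numbered 69, of which 50 rose and 17 fell (median 0.42, which lies below 0 after centring), and 45 of them were low-FPKM. Pseudogenes were the only class with as many falls as rises, 12 of each among 25 (median −0.55). Of 61 immunoglobulin segments 58 rose (median 2.42), and all 3 T cell receptor segments rose (median 1.05). Of the listed identifiers, 9 had no entry in the annotation used, and 8 of these were higher in DSS.

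**Figure D2:**
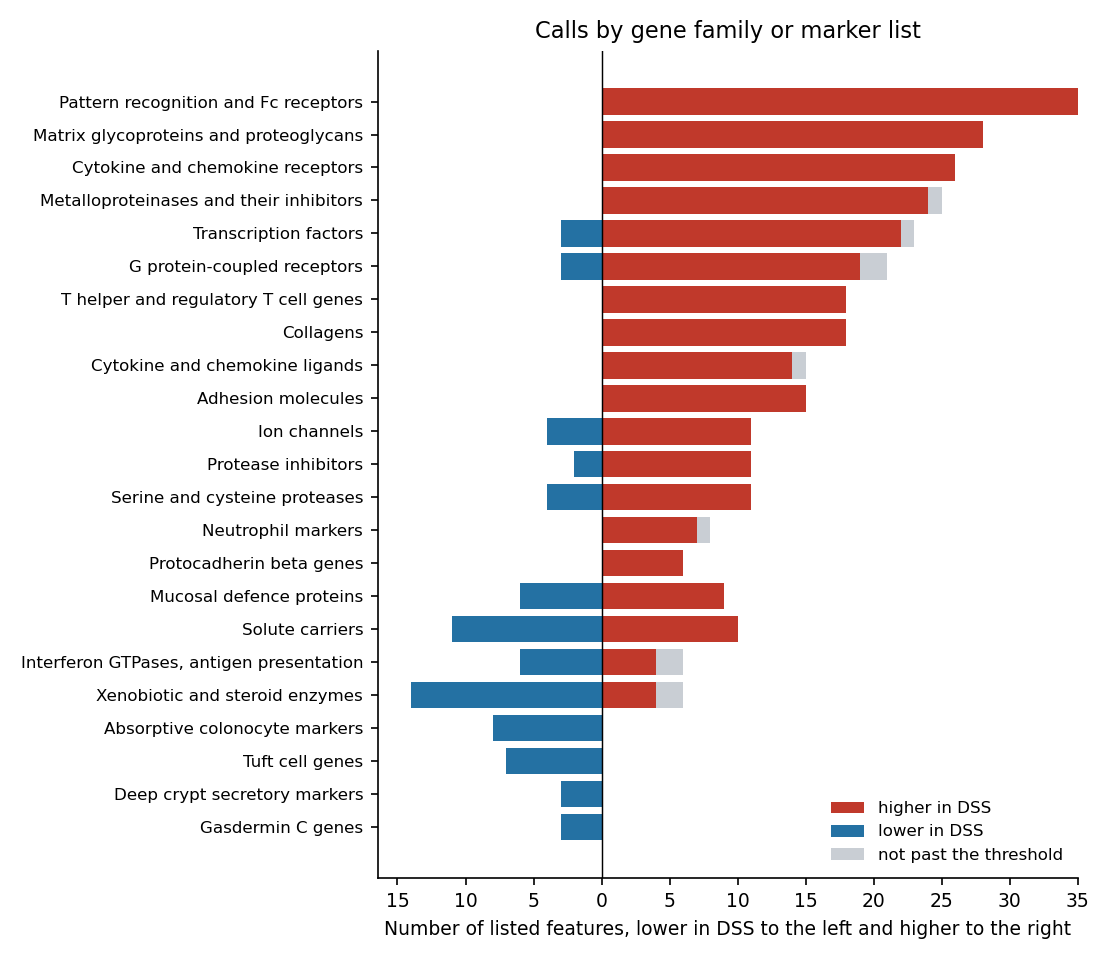
Bars count the listed members of 23 gene families and marker lists that were higher (red, right) or lower (blue, left) in DSS or did not pass the threshold (grey). The tuft cell, gasdermin C, protocadherin beta and helper and regulatory T cell lists were drawn up after values were seen. Leukocyte receptors, matrix genes and chemokines lie to the right, and colonocyte, tuft and deep crypt secretory markers lie wholly to the left; the background over all 912 features is 78.3% higher and 18.6% lower.

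Listed markers of the absorptive lining were lower in DSS. All 8 listed colonocyte markers fell (median −1.44), and without Control replicate 3 and DSS replicate 3 their median was −1.53 with 4 of the 8 still called. The next 5 genes are not on that list, and which cells express them was not tested. Slc37a2, a sugar-phosphate transporter, had 67.5, 73.9 and 70.8 FPKM in Control and 17.4, 7.77 and 31.7 FPKM in DSS, so that all DSS libraries lay below all Control libraries (log2 difference −2.04, SE 0.45, limma adjusted p = 0.00675). The apical peptidase gene Naaladl1 stood at 10.5, 15.3 and 17.5 FPKM in Control and 3.57, 2.37 and 3.62 FPKM in DSS, a 4.52-fold lower mean without overlap (log2 difference −1.87, SE 0.27, limma adjusted p = 0.00319). Upp1, which splits uridine, went from 57.8, 56.3 and 70.4 FPKM to 17.3, 10.2 and 18.9 FPKM (log2 difference −1.96, SE 0.31, limma adjusted p = 0.00414). Carboxypeptidase M (Cpm) fell from 14.1, 19.5 and 25.1 FPKM to 5.2, 5.21 and 6.85 FPKM, again without overlap (log2 difference −1.58, SE 0.28, limma adjusted p = 0.00516). Selenbp1, a selenium-binding protein that oxidises methanethiol, had 226, 223 and 299.7 FPKM in Control and 88.9, 38.3 and 148 FPKM in DSS (log2 difference −1.62, SE 0.49, limma adjusted p = 0.0141). In Slc37a2, Upp1 and Selenbp1, DSS replicate 2 was the lowest library. Selenbp1 did not pass with Control replicate 3 left out (highest limma adjusted p = 0.0502). All 3 listed members of the gasdermin C family (a list drawn up after values were seen), Gsdmc2, Gsdmc3 and Gsdmc4, pore-forming proteins of the intestinal epithelium, fell (median −1.13). Gsdmc2 did not pass with Control replicate 2, Control replicate 3 or DSS replicate 1 left out (highest limma adjusted p = 0.0598). Gsdmc4 was the most abundant, at 369 ± 33.7 FPKM in Control and 173 ± 55.3 FPKM in DSS (mean and SD of 3 libraries per group, here and below).

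Detoxifying and steroid enzymes were mostly lower. Of 20 listed xenobiotic and steroid enzymes 14 fell, 4 rose and 2 did not pass (median −0.83). Among the falls were Cyp4f14, a fatty acid hydroxylase (38.3 ± 2.76 FPKM in Control and 14 ± 3.04 FPKM in DSS, log2 difference −1.41, limma adjusted p = 0.00545), the glucuronosyltransferase Ugt2b35 (10.5 ± 0.847 FPKM in Control and 3.84 ± 1.74 FPKM in DSS, log2 difference −1.31, limma adjusted p = 0.00682) and the carboxylesterase Ces1b. Ces1b was low-FPKM, at 0.88, 1.01 and 1.16 FPKM in Control and 0, 0.06 and 0.27 FPKM in DSS, or 24.9, 33 and 37 fragments in Control and 0, 2 and 10.2 in DSS, and no DSS library reached a Control library (log2 difference −0.87, SE 0.12, limma adjusted p = 0.00319). The related Ces1f fell from 10.3 ± 2.07 to 3.70 ± 1.09 FPKM. No source used here says how fragments were divided between such similar genes, and both values are uncertain. The 4 rises were Aldh1a3, Cyp7b1, Srd5a1 and Cyp4f18. Aldh1a3, which makes retinoic acid from retinal, had 1.51, 3.12 and 1.66 FPKM in Control and 9.57, 33.8 and 9.76 FPKM in DSS, with DSS replicate 2 more than 3 times either other DSS library (log2 difference 2.39, SE 0.47, limma adjusted p = 0.00548, log2 difference 1.82 without DSS replicate 2). On a list of retinoid genes drawn up after values were seen, other members split: Isx, a homeobox repressor of vitamin A uptake, rose from 1.24, 0.1 and 0.24 FPKM to 2.39, 9.32 and 3.11 FPKM (log2 difference 1.85, SE 0.44, limma adjusted p = 0.0073), while the retinol dehydrogenase Rdh9 (log2 difference −0.75) and Aldh1a7 (−0.76) fell and the retinoic acid hydroxylase Cyp26b1 did not pass (limma adjusted p = 0.0507). Rdh9 did not pass with Control replicate 3, DSS replicate 1 or DSS replicate 2 left out (highest limma adjusted p = 0.079).

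Solute carriers fell and rose in near equal number. Of 21 solute carriers 11 fell and 10 rose, a median of −0.72 where the whole list has 0.67. The rises were small in absolute level. Slc25a45, a mitochondrial carrier, had the largest, from 1.71, 1.85 and 1.54 FPKM to 4.13, 4.88 and 4.74 FPKM (log2 difference 1.05, SE 0.19, limma adjusted p = 0.00545), followed by Slc6a20a, an imino acid transporter (0.94), Slc11a1, the phagosomal metal exporter of macrophages (0.90), and Slc15a3, a lysosomal peptide transporter (0.70), all on the log2 scale and all without overlap. Slc15a3 did not pass with Control replicate 3 left out (highest limma adjusted p = 0.0549). The manganese exporter Slc30a10 fell, from 0.34, 1.12 and 0.93 FPKM to 0.08, 0.03 and 0.1 FPKM (log2 difference −0.72, SE 0.16, limma adjusted p = 0.00682). Of 15 ion channel genes 11 rose and 4 fell (median 0.35, below 0 after centring). The falls included Kcne3, the subunit that keeps the colonocyte's basolateral potassium channel open (108 ± 20.6 FPKM in Control and 50.1 ± 5.98 FPKM in DSS, log2 difference −1.08, limma adjusted p = 0.00984), and the sodium channel subunit Scn2b (−0.62). Among the rises were Kcne4, the irritant channel Trpa1 and the potassium channel interacting protein Kcnip3 (log2 differences 1.03, 0.67 and 0.61, of which that of Kcnip3 is below 0 after centring). Trpa1 had a log2 difference of 0.37 without DSS replicate 2 and did not pass with Control replicate 1, Control replicate 2 or Control replicate 3 left out (highest limma adjusted p = 0.0801).

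Genes of secretory cells at the crypt base gave the largest falls of the list. Ang4, whose secreted product kills bacteria, was measured at 608, 84.5 and 6.87 FPKM in Control and 0.18, 1.44 and 0.29 FPKM in DSS, and all Control libraries lay above all DSS libraries (log2 difference −5.58, SE 1.31, limma adjusted p = 0.0071). Control replicate 1 was far above the other Control libraries, and without Control replicate 1 the log2 difference was −4.07 (limma adjusted p = 0.0121). Mptx2, the second mucosal pentraxin gene, had 1.66, 0.83 and 0.62 FPKM in Control and 0.08, 0 and 0.07 FPKM in DSS, which is 19, 11 and 8 fragments in Control and 1, 0 and 1.1 in DSS (log2 difference −0.92, SE 0.17, limma adjusted p = 0.00545), so that no DSS library held more than 1.10 fragments. Both listed goblet cell markers (Ang4 and Retnlb) and all 3 listed deep crypt secretory markers (Ang4, Mptx1 and Mptx2) fell, and neither list is independent of the other. Control replicate 1 was more than 2 times both other Control libraries in 11 of the 170 falls, against 0 for Control replicate 2 and 1 for Control replicate 3. Among the 11 were Ang4, Mptx1, Retnlb, the pancreas marker Sycn, Klk1b3, Klk1b4, Crisp3, Sh2d7, Dnah5 and AC151990.1, named after their values were seen, and 9 of the 11 still passed without that library. Klk1b4, a glandular kallikrein gene, had 4.97, 0.86 and 0.95 FPKM in Control and 0.23, 0.14 and 0.31 FPKM in DSS, and its close paralog Klk1b3 had 2.11, 0.41 and 0.42 FPKM in Control and 0.15, 0.07 and 0.23 FPKM in DSS; fragments of the pair may be shared, so both are uncertain. The secreted cysteine-rich protein gene Crisp3 followed the same order in Control, with 2.16, 0.68 and 0.43 FPKM in Control and 0.05, 0.04 and 0.26 FPKM in DSS (log2 difference −0.82, SE 0.27, limma adjusted p = 0.0179, and log2 difference −0.48 without Control replicate 1). Without Control replicate 1 the log2 differences of Klk1b4, Klk1b3, Retnlb and AC151990.1 went from −1.19, −0.68, −2.81 and −1.37 to −0.64, −0.30, −1.63 and −0.67. That of Dnah5 went from −0.18 to −0.12. Klk1b4 did not pass with DSS replicate 2 or DSS replicate 3 left out (highest limma adjusted p = 0.0561), Klk1b3 with DSS replicate 1, DSS replicate 2 or DSS replicate 3 left out (highest limma adjusted p = 0.104), Retnlb with Control replicate 2, DSS replicate 1 or DSS replicate 3 left out (highest limma adjusted p = 0.0654) and AC151990.1 with DSS replicate 1, DSS replicate 2 or DSS replicate 3 left out (highest limma adjusted p = 0.0709). Dnah5 did not pass with Control replicate 1, DSS replicate 1 or DSS replicate 2 left out (highest limma adjusted p = 0.09).

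Tuft cell genes fell together at low levels. Tuft cells are chemosensory epithelial cells that use taste signalling proteins, and 7 of 24 genes in a list drawn up after values were seen were on the deposited list, of which all 7 fell (median −0.85, or −1.50 after centring). The taste G protein Gnat3 had 1.17, 1.68 and 0.77 FPKM in Control and 0.14, 0.13 and 0.19 FPKM in DSS, which is 22.9, 38.1 and 17 fragments in Control and 2.9, 2.9 and 5 in DSS (log2 difference −0.92, SE 0.16, limma adjusted p = 0.00499). Trpm5, the cation channel that acts after it, had 1.26, 1.06 and 0.77 FPKM in Control and 0.27, 0.15 and 0.31 FPKM in DSS (log2 difference −0.70, SE 0.13, limma adjusted p = 0.00545). Pou2f3, the transcription factor that specifies the lineage, went from 0.72, 0.35 and 0.44 FPKM to 0.19, 0.16 and 0.14 FPKM (log2 difference −0.36, SE 0.10, limma adjusted p = 0.0114). In all 3 genes every DSS library lay below every Control library. The G protein signalling regulator Rgs13 fell from 4.91, 4.24 and 2.16 FPKM to 0.94, 0.98 and 1.2 FPKM (log2 difference −1.18, SE 0.26, limma adjusted p = 0.00682), the adaptor gene Sh2d6 from 4.61, 2.95 and 2.95 FPKM to 1.07, 0.96 and 1.54 FPKM and the adaptor gene Sh2d7 from 2.21, 0.87 and 0.81 FPKM to 0.19, 0.08 and 0.43 FPKM. Alox5, the leukotriene-forming lipoxygenase that tuft cells and leukocytes both express, was also lower (0.83, 0.99 and 0.77 FPKM in Control and 0.36, 0.51 and 0.22 FPKM in DSS, log2 difference −0.45, SE 0.12, limma adjusted p = 0.00975). The summed level of the 7 genes ran from 8.67 to 15.7 FPKM in Control and from 2.97 to 4.03 FPKM in DSS. All 7 remained called without DSS replicate 2, and 5 without Control replicate 3 and DSS replicate 3. The 17 other genes of that list, Dclk1 among them, are not on the deposited list.

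**Figure D3:**
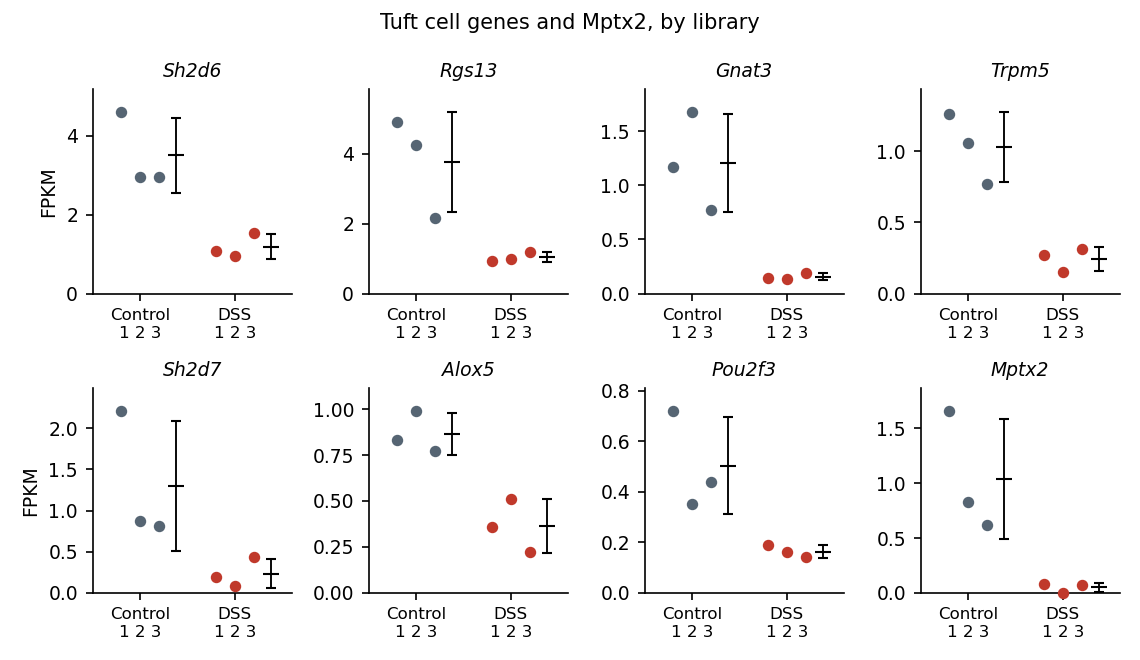
FPKM of 7 tuft cell genes and Mptx2 in each Control (grey) and DSS (red) library, replicates 1 to 3 from left to right, with the group mean and SD (bars, cut at 0) beside the points. In every panel the 3 DSS points lie below the 3 Control points, and Mptx2 is at 0 to 0.08 FPKM in DSS.

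Of 8 crypt stem cell markers 2 were listed, and both fell: Axin2, a Wnt target, had 5.83, 8.48 and 9.87 FPKM in Control and 3.24, 4.03 and 3.64 FPKM in DSS (log2 difference −0.94, SE 0.24, limma adjusted p = 0.0089), and Ascl2, a transcription factor of the stem cell, had 2.27, 3.92 and 5.35 FPKM in Control and 0.88, 0.85 and 0.68 FPKM in DSS (log2 difference −1.38, SE 0.26, limma adjusted p = 0.00545). The groups did not overlap in either, but without Control replicate 3 and DSS replicate 3 only Ascl2 passed. A wider list of Wnt, stem cell and feedback genes had 3 rises (Plet1, Anxa8 and Prom1) beside these 2 falls, a median of 1.17. Of 26 listed transcription factors 22 rose, 3 fell and 1 did not pass (median 0.67). Among single genes with lower values, Hmga2, a chromatin protein of growing cells, had 1.77, 2.63 and 2.64 FPKM in Control and 0.74, 0.43 and 0.8 FPKM in DSS (log2 difference −1.01, SE 0.19, limma adjusted p = 0.00545), and Esrrg, a nuclear receptor of oxidative metabolism, had 3.17, 4.05 and 4.24 FPKM in Control and 1.84, 0.73 and 1.67 FPKM in DSS (log2 difference −1.02, SE 0.25, limma adjusted p = 0.00739). The nucleotide receptor P2ry4, which drives chloride secretion in epithelia, was the largest fall among 24 listed G protein-coupled receptors (2.76, 2.49 and 2.35 FPKM in Control and 1.48, 0.3 and 0.75 FPKM in DSS, log2 difference −0.99, SE 0.25, limma adjusted p = 0.00821). The sialyltransferase St8sia5 (log2 difference −1.31), the monoamine oxidase Maoa (−1.05) and Otc of the urea cycle (−1.01) fell among enzymes of carbohydrates, amino acids and nucleotides, a list with 10 rises, 6 falls and 2 that did not pass. Maoa did not pass with Control replicate 2 or Control replicate 3 left out (highest limma adjusted p = 0.0651). Sgk1 and Sgk2, kinases that act on sodium transport, fell by 1.12 and 0.85 on the log2 scale.

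Cytokine and chemokine ligands rose, and 6 of them were low-FPKM. Of 15 listed ligands 14 rose and 1, Cxcl2, did not pass (median 1.11). Ccl3, a chemokine that recruits monocytes and other leukocytes, had 0.36, 0.08 and 0.4 FPKM in Control and 1.1, 5.1 and 0.75 FPKM in DSS, which is 4, 1 and 5 fragments in Control and 13, 65 and 11 in DSS (log2 difference 1.15, SE 0.42, limma adjusted p = 0.028). Ccl3 did not pass with Control replicate 2 or Control replicate 3 left out (highest limma adjusted p = 0.0905). Without DSS replicate 2 its log2 difference was 0.59. Cxcl2, a neutrophil attractant chosen here because it is the exception, had 0, 0.09 and 0.06 FPKM in Control and 1.35, 14.1 and 0.25 FPKM in DSS (limma adjusted p = 0.0519). Every DSS value of Cxcl2 lay above every Control value, but DSS replicate 2 was more than 10 times replicate 1, and without that library Cxcl2 passed (log2 difference 0.71, limma adjusted p = 0.0242). The growth factors and morphogens on the list rose in 18 of 19 cases (median 0.75). Sfrp1 and Sfrp2, secreted Wnt inhibitors, and Igf1 were among the larger rises (log2 differences 1.48, 1.08 and 1.13).

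All 26 listed cytokine and chemokine receptors rose (median 0.82), 11 of them low-FPKM, and DSS replicate 2 was highest in 18. Tnfrsf8 (CD30), a receptor of activated lymphocytes, had the largest difference with closely matching DSS libraries, 2.13, 0.97 and 1.96 FPKM in Control and 7.18, 7.79 and 7.63 FPKM in DSS (log2 difference 1.70, SE 0.24, limma adjusted p = 0.00319). The soluble decoy receptor osteoprotegerin (Tnfrsf11b) went from 1.06, 1.47 and 0.68 FPKM to 3.38, 6.59 and 3.17 FPKM (log2 difference 1.34, SE 0.29, limma adjusted p = 0.00633). Cxcr2, the neutrophil receptor for several of these chemokines, was at 0, 0 and 0.02 FPKM in Control and 0.53, 3.39 and 0.17 FPKM in DSS, that is, 0, 0 and 1 fragments in Control and 24.9, 172 and 9.9 in DSS (log2 difference 0.98, SE 0.42, limma adjusted p = 0.0467). Its log2 difference without DSS replicate 2 was 0.41, and it did not pass with Control replicate 1, Control replicate 2 or Control replicate 3 left out (highest limma adjusted p = 0.106). Il5ra, a receptor subunit of eosinophils and some B lineage cells, had 0.19, 0.2 and 0.12 FPKM in Control and 0.91, 1.85 and 0.74 FPKM in DSS (log2 difference 0.86, SE 0.18, limma adjusted p = 0.00633).

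G protein-coupled receptors rose in most cases. Of 24 listed, 19 rose, 3 fell and 2 did not pass (median 0.62, just below 0 after centring). Fpr1, which senses bacterial formyl peptides, had 0.05, 0 and 0.14 FPKM in Control and 1.13, 2.09 and 0.83 FPKM in DSS, and the 3 DSS libraries held 23.1, 46.0 and 21.1 fragments against at most 3.00 in Control (log2 difference 1.11, SE 0.19, limma adjusted p = 0.0049). Bdkrb1, the inducible kinin receptor, had 0, 0.25 and 0.26 FPKM in Control and 1.27, 3.14 and 0.47 FPKM in DSS (log2 difference 1.04, SE 0.33, limma adjusted p = 0.0163, log2 difference 0.65 without DSS replicate 2). The receptors for short-chain fatty acids (Ffar2) and long-chain fatty acids (Ffar4) rose from 2.59, 1.01 and 1.13 FPKM to 3.7, 5.52 and 5.37 FPKM and from 6.8, 6.9 and 7.13 FPKM to 15.6, 20.2 and 17.6 FPKM. Ffar4 was the tightest of these in Control, at 6.94 ± 0.169 FPKM (log2 difference 1.24, SE 0.22, limma adjusted p = 0.00545). Adgrf1, an adhesion receptor, rose 4.4-fold from 1.44, 2.43 and 1.18 FPKM to 7.04, 6.2 and 8.97 FPKM (log2 difference 1.66, SE 0.25, limma adjusted p = 0.00414). The tachykinin receptor gene Tacr3 and the nociceptin receptor gene Oprl1 fell from mean levels of 0.183 and 0.313 FPKM, with log2 differences of −0.17 and −0.24. Without Control replicate 3 the log2 difference of Tacr3 was −0.11, and it did not pass with Control replicate 2, Control replicate 3, DSS replicate 1, DSS replicate 2 or DSS replicate 3 left out (highest limma adjusted p = 0.151). Oprl1 did not pass with Control replicate 3 left out (highest limma adjusted p = 0.053).

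All 35 listed pattern recognition and Fc receptor genes rose (median 0.88), and 28 of them still passed without Control replicate 3 and DSS replicate 3. Clec7a (dectin-1), a receptor for fungal beta-glucans, had 2.77, 4.62 and 2.85 FPKM in Control and 15.7, 9.94 and 11.1 FPKM in DSS (log2 difference 1.59, SE 0.27, limma adjusted p = 0.00496). The C-type lectin Clec2e rose from 4.34, 4.95 and 3.55 FPKM to 9.43, 18.8 and 14.2 FPKM (log2 difference 1.48, SE 0.29, limma adjusted p = 0.00548). The macrophage scavenger receptor Marco was listed at 0 in all 3 Control libraries and at 0.4, 1.19 and 0.24 FPKM in DSS (log2 difference 0.64, SE 0.19, limma adjusted p = 0.0122, log2 difference 0.40 without DSS replicate 2). Clec4d, an activating lectin of neutrophils and monocytes, had 0.57, 0.38 and 0.31 FPKM in Control and 1.14, 8.31 and 0.98 FPKM in DSS. DSS replicate 2 stood far above the rest in Clec4d, whose log2 difference was 1.27 with that library and 0.54 without it. Clec4d did not pass with Control replicate 1, Control replicate 2 or Control replicate 3 left out (highest limma adjusted p = 0.106).

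Neutrophil markers were highest in DSS replicate 2. Of 16 markers 8 were listed, 7 rose and 1 (Acod1, limma adjusted p = 0.0943) did not pass, and all 8 had their highest value in DSS replicate 2. Their summed level was 2.03 to 2.50 FPKM in Control and 8.76 to 65.1 FPKM in DSS. Without DSS replicate 2 all 7 remained called, and the median fell from 1.29 to 0.67. More widely, 438 of the 714 rises were highest in DSS replicate 2, 216 in replicate 1 and 60 in replicate 3, and DSS replicate 2 was more than 3 times both other DSS libraries in 25 rises, 12 of them low-FPKM. Among the falls, 109 of 170 were lowest in DSS replicate 2. Its part in any single result was not tested beyond the values without it.

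**Figure D4:**
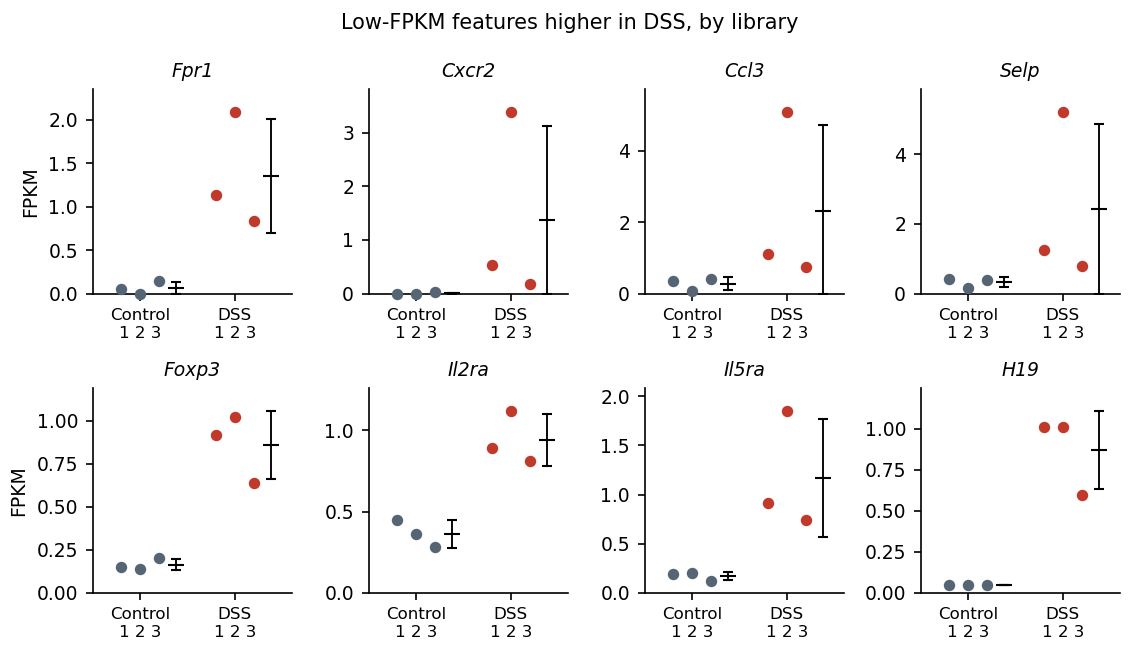
FPKM of 8 low-FPKM features in each Control (grey) and DSS (red) library, replicates 1 to 3 from left to right, with the group mean and SD (bars, cut at 0). Cxcr2, Ccl3 and Selp are highest by far in DSS replicate 2, whereas the 3 DSS libraries lie close together in Foxp3 and Il2ra.

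T cell genes rose and were most often highest in DSS replicate 1. All 8 listed T and NK cell markers of 20 rose (median 0.97, and 1.03 without DSS replicate 2), and 6 were highest in DSS replicate 1. Foxp3, the defining transcription factor of regulatory T cells, had 0.15, 0.14 and 0.2 FPKM in Control and 0.92, 1.02 and 0.64 FPKM in DSS, or 9.9, 10.7 and 14.9 fragments in Control and 64.9, 77.6 and 56.1 in DSS (log2 difference 0.67, SE 0.11, limma adjusted p = 0.00414). Il2ra, the high-affinity interleukin receptor subunit carried by those cells and by activated T cells, had 0.45, 0.36 and 0.28 FPKM in Control and 0.89, 1.12 and 0.81 FPKM in DSS (log2 difference 0.51, SE 0.12, limma adjusted p = 0.00701). The groups did not overlap in either gene. On a list of helper and regulatory T cell genes drawn up after values were seen, 18 of 30 genes were listed and all 18 rose, 10 of them low-FPKM (median 0.65). Trdv4, a variable segment of gamma-delta T cells, went from 0.47, 0.27 and 0.14 FPKM to 1.61, 2.3 and 1.18 FPKM (log2 difference 1.05, SE 0.19, limma adjusted p = 0.00545). Being short, it rests on 3, 2 and 1 fragments in Control and 11, 17 and 10 in DSS. Markers of mast cells and eosinophils were few. The 3 listed of 15, Mcpt4, Cpa3 and Ccr3, rose and were all highest in DSS replicate 1. Ccr3, the eotaxin receptor, had 0.04, 0.02 and 0.02 FPKM in Control and 0.36, 0.29 and 0.19 FPKM in DSS (log2 difference 0.32, SE 0.07, limma adjusted p = 0.0063), which rests on 11.9 to 18.2 fragments in DSS.

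Antibody genes were higher in most cases. The IgG genes Ighg2c and Ighg3 rose most among the constant genes, Ighg3 from 2.13, 8.29 and 2.92 FPKM to 43.7, 55.1 and 41.9 FPKM (log2 difference 3.29, SE 0.41, limma adjusted p = 0.00221). Igha, the gene of the mucosal isotype, began at 1239 ± 262 FPKM and rose less, to 2945 ± 602 FPKM (log2 difference 1.25, SE 0.40, limma adjusted p = 0.0175). Igha did not pass with Control replicate 2 or Control replicate 3 left out (highest limma adjusted p = 0.0775). The difference between the isotypes was not tested. A single light chain segment and a single heavy chain segment went the other way, Iglv2 from 907, 415 and 746 FPKM to 404, 321 and 231 FPKM (log2 difference −1.07, SE 0.43, limma adjusted p = 0.0376) and Ighv5-9-1 with 223, 172 and 8.51 FPKM in Control and 4.71, 15.3 and 3.03 FPKM in DSS, where the groups overlap. Iglv2 did not pass with Control replicate 1, Control replicate 3, DSS replicate 2 or DSS replicate 3 left out (highest limma adjusted p = 0.125), and Ighv5-9-1 with Control replicate 1, Control replicate 2, DSS replicate 1 or DSS replicate 3 left out (highest limma adjusted p = 0.0822). Variable segments share sequence, so the division of fragments between them is uncertain.

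Adhesion molecules rose. All 15 listed adhesion genes were higher (median 0.45, below 0 after centring), and 10 passed without Control replicate 3 and DSS replicate 3. P-selectin (Selp), which catches leukocytes on activated endothelium, had 0.43, 0.16 and 0.39 FPKM in Control and 1.25, 5.23 and 0.8 FPKM in DSS (log2 difference 1.15, SE 0.41, limma adjusted p = 0.0258), with a log2 difference of 0.61 without DSS replicate 2, and did not pass with Control replicate 2 or Control replicate 3 left out (highest limma adjusted p = 0.0816). E-selectin (Sele) was listed at 0 in 2 Control libraries and had 0, 0.04 and 0 FPKM in Control and 0.16, 0.68 and 0.14 FPKM in DSS (log2 difference 0.37, SE 0.14, limma adjusted p = 0.0323, log2 difference 0.18 without DSS replicate 2). Sele did not pass with Control replicate 1, Control replicate 2 or Control replicate 3 left out (highest limma adjusted p = 0.0744). The endothelial tight junction gene Cldn5 completes the 3 listed of 15 endothelial markers (2.21 ± 0.589 FPKM in Control and 5.09 ± 1.89 FPKM in DSS, log2 difference 0.90, limma adjusted p = 0.0145), and did not pass with Control replicate 1 left out (highest limma adjusted p = 0.0506). All 3 rose, but 1 of the 3 (Selp) passed without Control replicate 3 and DSS replicate 3. Cell-cell adhesion genes of the protocadherin beta cluster on chromosome 18 rose together. This list was drawn up after values were seen, and it is not independent of the adhesion list, with which it shares its smallest difference. Of 22 members 6 were listed, all low-FPKM, with group means of 0.0433 to 0.247 FPKM in Control and 0.23 to 1.04 FPKM in DSS. Pcdhb9 was the highest of them, with 0.14, 0.24 and 0.36 FPKM in Control and 1.08, 1.08 and 0.97 FPKM in DSS, which is 6.2, 12.2 and 17.8 fragments in Control and 50.9, 54.9 and 56.8 in DSS (log2 difference 0.72, SE 0.11, limma adjusted p = 0.00414). The other 5, Pcdhb3, Pcdhb4, Pcdhb5, Pcdhb13 and Pcdhb16, had log2 differences of 0.24 to 0.41. The median of the 6, 0.33, is below 0 after centring, and 3 of the 6 passed without Control replicate 3 and DSS replicate 3. Pcdhb16 did not pass with Control replicate 3 left out (highest limma adjusted p = 0.0567).

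Matrix genes rose as a body. All 18 collagens (median 1.24), all 28 glycoproteins and proteoglycans (median 1.06) and all 11 crosslinking and processing enzymes (median 1.00) were higher, and DSS replicate 2 was highest in 18, 26 and 9 of them. Without DSS replicate 2 the medians were 1.06, 0.86 and 0.84. The fibroblast markers, 8 of 14 listed, were likewise all highest in that library, with summed levels of 167 to 203 FPKM in Control and 491 to 974 FPKM in DSS. Mfap4, an elastic fibre protein, gave the largest rise among the glycoproteins, from 7.56, 9.59 and 8.37 FPKM to 31.3, 37.5 and 26 FPKM (log2 difference 1.77, SE 0.25, limma adjusted p = 0.00319). Low-FPKM stromal genes also rose from close to 0. Prrx2, a mesenchymal homeobox factor, had 0.14, 0.03 and 0.16 FPKM in Control and 0.6, 0.95 and 0.72 FPKM in DSS (log2 difference 0.66, SE 0.10, limma adjusted p = 0.00414), and the metalloprotease Adam12 had 0.07, 0.07 and 0.07 FPKM in Control and 0.82, 2.1 and 0.51 FPKM in DSS (log2 difference 0.93, SE 0.23, limma adjusted p = 0.00817).

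Metalloproteinases and their inhibitors rose in 24 of 25 cases (median 0.85, and 0.63 without DSS replicate 2). A set of 5 Mmp genes lies on chromosome 9 between 7344381 and 7699585 (GRCm38), and all 5 rose. They are neighbours among the listed features only: of 8 protein-coding genes annotated in that interval, 3 (Mmp1b, Mmp8 and Mmp20) are not on the list. These secreted enzymes cut collagens, proteoglycans and other matrix proteins. Mmp3 (stromelysin 1) had 1.2, 1.73 and 0.99 FPKM in Control and 8.86, 20.2 and 5.48 FPKM in DSS (log2 difference 2.28, SE 0.41, limma adjusted p = 0.00545) and Mmp10 (stromelysin 2) had 1.17, 1.05 and 0.54 FPKM in Control and 6.89, 24.2 and 4.18 FPKM in DSS (log2 difference 2.41, SE 0.52, limma adjusted p = 0.00651). Both were highest in DSS replicate 2, and their groups did not overlap. The other 3 were low-FPKM. Mmp7 (matrilysin) was listed at 0 in 2 Control libraries and had 0, 0 and 0.12 FPKM in Control and 0.12, 3.04 and 1.03 FPKM in DSS, so that DSS replicate 1 did not exceed Control replicate 3 (log2 difference 1.01, SE 0.39, limma adjusted p = 0.0323, log2 difference 0.54 without DSS replicate 2). Mmp7 did not pass with Control replicate 1, Control replicate 2, Control replicate 3 or DSS replicate 3 left out (highest limma adjusted p = 0.0852), and Mmp12 with Control replicate 3 left out (highest limma adjusted p = 0.055). Mmp12 (macrophage elastase) had 0.12, 0.1 and 0.06 FPKM in Control and 0.27, 0.5 and 0.23 FPKM in DSS (log2 difference 0.28, SE 0.09, limma adjusted p = 0.0154) and Mmp27 had 0.03, 0.24 and 0.03 FPKM in Control and 0.35, 0.46 and 0.68 FPKM in DSS (log2 difference 0.44, SE 0.11, limma adjusted p = 0.00821). Mmp7, Mmp12 and Mmp27 are named for their position.

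**Figure D5:**
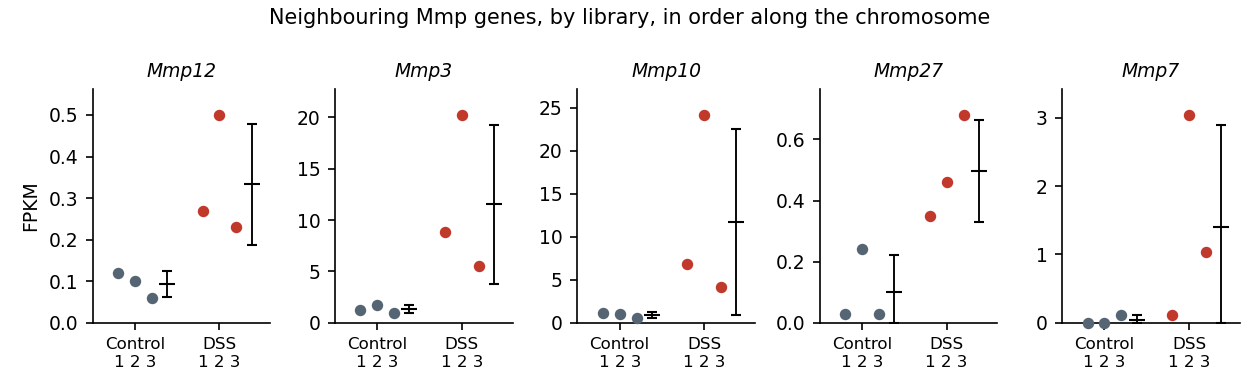
FPKM of the 5 listed Mmp genes of the chromosome 9 run in each Control (grey) and DSS (red) library, replicates 1 to 3 from left to right, each panel with its own axis from 0, and the group mean and SD (bars, cut at 0). DSS replicate 2 is highest in Mmp12, Mmp3, Mmp10 and Mmp7, and DSS replicate 3 in Mmp27.

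The promoters of these genes are shown because the 5 members rose and 4 of them carry the same short sequence near the start. The windows are 250 bases before to 50 after a RefSeq transcription start (GRCm38.p6, plus strand), and capitals mark TGAGTCA, the reverse complement of TGACTCA, the consensus bound by the AP-1 factors.
Mmp12, chr9:7347124-7347423: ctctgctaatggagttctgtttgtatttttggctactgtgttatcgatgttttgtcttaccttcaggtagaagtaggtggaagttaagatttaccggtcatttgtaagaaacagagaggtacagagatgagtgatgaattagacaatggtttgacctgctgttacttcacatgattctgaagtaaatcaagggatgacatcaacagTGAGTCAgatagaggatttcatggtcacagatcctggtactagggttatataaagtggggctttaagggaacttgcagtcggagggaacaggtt
Mmp3, chr9:7445572-7445871: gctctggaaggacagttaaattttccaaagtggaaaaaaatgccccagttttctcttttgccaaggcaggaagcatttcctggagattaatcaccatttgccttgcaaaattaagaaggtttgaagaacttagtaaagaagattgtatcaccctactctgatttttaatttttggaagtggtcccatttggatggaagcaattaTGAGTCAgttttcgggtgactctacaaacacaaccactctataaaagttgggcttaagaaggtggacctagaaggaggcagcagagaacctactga
Mmp10, chr9:7502092-7502391: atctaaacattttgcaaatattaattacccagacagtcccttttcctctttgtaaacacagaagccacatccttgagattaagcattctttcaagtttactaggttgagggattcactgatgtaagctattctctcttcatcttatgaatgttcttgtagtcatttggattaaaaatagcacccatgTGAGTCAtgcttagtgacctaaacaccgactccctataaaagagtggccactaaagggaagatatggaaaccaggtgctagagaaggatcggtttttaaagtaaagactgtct
Mmp7, chr9:7691840-7692139: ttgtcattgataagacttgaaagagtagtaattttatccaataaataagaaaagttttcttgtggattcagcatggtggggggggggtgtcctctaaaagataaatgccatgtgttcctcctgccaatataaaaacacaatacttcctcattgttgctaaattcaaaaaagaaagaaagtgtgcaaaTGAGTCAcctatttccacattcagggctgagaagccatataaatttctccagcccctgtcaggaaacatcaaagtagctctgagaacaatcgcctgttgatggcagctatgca
The match starts 44, 46, 63 and 63 bases before the start in Mmp12, Mmp3, Mmp10 and Mmp7. A second window of Mmp12 and of Mmp7, at another start, and the window of Mmp27 hold no match. TGACTCA on either strand occurred in promoters of 5.95% of the 27025 genes in the table, of 9.15% of 448 features higher in DSS, of 11.1% of 126 features lower in DSS, and of 4 of the 9 listed Mmp genes that have a promoter in the table, 12 Mmp genes being listed in all. The table has a promoter for 596 of the listed features and none for the other 316. Of 12 motifs searched on both strands, several of them variants for NF-kB, the PU.1 sequence GAGGAAGT occurred in promoters of 3.69% of all genes, 7.59% of the same 448 higher features and 3.17% of the 126 lower features. The HNF4A sequence was more frequent than in all genes (0.56%) in both directions, and most frequent among falls. It occurred in 1.34% of higher features (6) and 2.38% of lower features (3). The broadest NF-kB variant occurred in 1.89% of all genes, 3.35% of higher features and 2.38% of lower features. The other NF-kB variants were also more frequent in higher features than in all genes, and occurred in no lower feature. ETS (12.3% against 12.5%) and TEAD (5.13% against 4.95%) were about equal in higher features and all genes. STAT (0.67% against 1.35%), CDX (1.56% against 3.21%) and E-box (5.36% against 8.09%) were less frequent in higher features than in all genes. Matches describe letters in a window and were not tested.

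Protease inhibitors rose in 11 of 13 cases (median 1.05). Wfdc18, a whey acidic protein family member, had 1.65, 2.26 and 1.97 FPKM in Control and 13.9, 33.3 and 19 FPKM in DSS (log2 difference 2.88, SE 0.32, limma adjusted p = 0.00197). A row of 5 Serpina3 features on chromosome 12 rose, from Serpina3n, an inhibitor of leukocyte proteases, at 25 ± 3.59 FPKM in Control and 113 ± 50.4 FPKM in DSS, to low-FPKM Serpina3h. Among serine and cysteine proteases 11 rose and 4 fell. Prss22, an epithelial tryptase-like protease, was listed at 0 in all Control libraries and at 0.44, 4.5 and 0.83 FPKM in DSS (log2 difference 1.29, SE 0.43, limma adjusted p = 0.0197, log2 difference 0.70 without DSS replicate 2), and did not pass with Control replicate 2 left out (highest limma adjusted p = 0.0549).

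Krt90, Krt14, Ceacam12 and Khdc1a rose from under 1 FPKM in every Control library. Keratin Krt90 was listed at 0 in 2 Control libraries and had 0.05, 0 and 0 FPKM in Control and 0.51, 3.44 and 0.54 FPKM in DSS, or 1.8, 0 and 0 fragments in Control and 19.9, 145 and 26.2 in DSS (log2 difference 1.10, SE 0.37, limma adjusted p = 0.0206, log2 difference 0.59 without DSS replicate 2). The basal keratin Krt14, the 1 listed of 15 squamous epithelium markers, had 0.2, 0.41 and 0.28 FPKM in Control and 0.66, 3.69 and 0.92 FPKM in DSS, with DSS replicate 2 far above the others (log2 difference 0.93, SE 0.35, limma adjusted p = 0.0313, log2 difference 0.46 without that library). Krt90 did not pass with Control replicate 2 or Control replicate 3 left out (highest limma adjusted p = 0.0586), and Krt14 with Control replicate 1, Control replicate 2 or Control replicate 3 left out (highest limma adjusted p = 0.0677). Ceacam12 had 0.13, 0 and 0.05 FPKM in Control and 0.79, 1.47 and 1.63 FPKM in DSS and was highest in DSS replicate 3 (log2 difference 1.10, SE 0.16, limma adjusted p = 0.00319). Khdc1a, a KH domain gene of the early embryo, rose from 0.56, 0.42 and 0.43 FPKM to 19.6, 9.8 and 10.6 FPKM (log2 difference 3.22, SE 0.28, limma adjusted p = 0.00149), with no overlap between the groups. The calcium-activated channel regulator Clca4b rose from 5.03, 4.97 and 8.1 FPKM to 46.3, 185 and 91.6 FPKM (log2 difference 3.76, SE 0.48, limma adjusted p = 0.0025). Of 30 imprinted or imprinting-related genes in a list drawn up after values were seen, 4 were on the deposited list. All 4 rose (H19, Zfp57, Dio3os and Zim1). H19, a long noncoding RNA abundant before birth, had 0.05, 0.05 and 0.05 FPKM in Control and 1.01, 1.01 and 0.6 FPKM in DSS, which is 1.8, 2 and 2 fragments in Control and 38.3, 41.3 and 28.3 in DSS (log2 difference 0.83, SE 0.11, limma adjusted p = 0.00314).

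Some listed features overlap on opposite strands. Of 12 pairs of listed features that overlap on opposite strands, all 12 were called in the same direction, on a list where 78.3% of single features were higher; the share of unrelated pairs with 1 direction was not computed. Plet1os, antisense to the epithelial surface gene Plet1, had 0.49, 0.17 and 0.09 FPKM in Control and 3.28, 2.48 and 7.28 FPKM in DSS (log2 difference 2.01, SE 0.32, limma adjusted p = 0.00414), and Plet1 had 3.57, 1.02 and 1.68 FPKM in Control and 36.2, 48.4 and 81.5 FPKM in DSS. DSS replicate 3 was highest in both. Plet1os held 8.8, 3.5 and 1.8 fragments in Control and 62.9, 51.3 and 173.7 in DSS. Evx1 and Evx1os rose together (log2 differences 0.46 and 0.29), as did Prom1 and the antisense Gm16401 (1.17 and 0.42), and Hmga2 and 9230105E05Rik fell together (−1.01 and −0.80). No source used here says whether counting used the strand, and reads of the 2 partners cannot then be told apart. Mir142hg, the host transcript of a microRNA of blood cells, rose from 0.9, 1.59 and 0.98 FPKM to 4.23, 4.87 and 2.85 FPKM (log2 difference 1.20, SE 0.24, limma adjusted p = 0.00561). Its values rest on 3.5, 7.1 and 4.3 fragments in Control and 17.5, 21.8 and 14.7 in DSS. The antisense RNA 5430427M07Rik gave the largest noncoding fall, from 17.8, 21.9 and 23.6 FPKM to 4.54, 0.74 and 6.57 FPKM (log2 difference −2.39, SE 0.50, limma adjusted p = 0.00625).

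Among pseudogenes, Best4-ps, annotated as a unitary pseudogene of an epithelial anion channel, fell from 1.41, 0.52 and 2.1 FPKM to 0.14, 0.13 and 0.19 FPKM (log2 difference −0.96, SE 0.23, limma adjusted p = 0.00742). Gstm2-ps1, a processed copy of a glutathione transferase, fell from 6.24, 6.49 and 7.6 FPKM to 3.46, 2.01 and 3.18 FPKM (log2 difference −1.02, SE 0.23, limma adjusted p = 0.00692). Fragments of such copies may be shared with their source genes, so these values are uncertain.

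Runs of neighbouring features were also described. With gaps of at most 200000 bases, 22 runs of 4 or more listed features were found, 15 of them without immunoglobulin segments, and in 11 of the 15 all members were called in 1 direction, and how often runs of unrelated features would be was not computed. The only such run of falls was a stretch of class I histocompatibility genes on chromosome 17 from 36080115 to 36190287, with H2-Bl, Gm10499, Gm8909 and H2-T3 (median −0.73, 3 of the 4 low-FPKM). Gm8909 had 1.49, 1.36 and 3.15 FPKM in Control and 0.5, 0.27 and 0.57 FPKM in DSS (log2 difference −1.01, SE 0.24, limma adjusted p = 0.0071) and Gm10499 had 0.99, 1.94 and 2.31 FPKM in Control and 0.37, 0.31 and 0.65 FPKM in DSS, with no overlap in either. H2-Bl had a log2 difference of −0.56, or −0.36 without Control replicate 3, and did not pass with Control replicate 2 or DSS replicate 2 left out (highest limma adjusted p = 0.0576). H2-T3 did not pass with Control replicate 3 or DSS replicate 2 left out (highest limma adjusted p = 0.0534). These genes resemble each other, and the division of fragments between them is uncertain. The wider list of interferon-induced GTPases and antigen presentation genes was also mixed, with 4 rises (among them Ifitm1 and the class II gene H2-Oa, log2 differences 1.44 and 1.14), 6 falls and 2 that did not pass.

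The 28 features that did not pass were mostly low, 24 of them low-FPKM. The most abundant was Prdx6, a peroxidase, at 337, 670.0 and 738 FPKM in Control and 338, 249.8 and 308 FPKM in DSS, where Control replicate 1 lay with the DSS libraries (limma adjusted p = 0.0616). Igkv18-36 had 0.2, 0 and 0.54 FPKM in Control and 0.19, 43.4 and 1.82 FPKM in DSS and so rested on DSS replicate 2 (limma adjusted p = 0.096). Both were singled out after their values were seen.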

How the data were processed

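Per the labels' protocols, TRIzol was used on colon and 1 µg of the RNA went into each NEBNext Ultra library. The authors deposited 1 table of FPKM values per library, normalized by gene length and library total, per the file headers and values. The submitters' processing notes name bcl2fastq, fastp, FastQC and the mm10 genome. The aligner, counting, strand use, annotation and the rule behind the selection of features were not given in the sources.

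Groups follow the titles. log2(FPKM + 1) was fitted with limma 3.58.1 (trended empirical Bayes, R 4.3.3) over all 912 features without a filter, Control and DSS only, with Benjamini-Hochberg adjustment and a threshold of 0.05. The fit was tested on simulated data for 912 features, of which 97 were shifted by 1 log2 unit and 103 by 2. It found 76.3% of the former and 91.3% of the latter, while 6.15% of 179 calls fell on unshifted features. Most simulated features were unshifted, whereas the deposited list is a selection of features that differ. These shares therefore do not carry over to the calls on that list. Library totals, and from them fragments, were estimated from the spacing of low FPKM values of short genes. Identifiers were matched to GENCODE M21 (903 of 912); promoters came from RefSeq (GRCm38.p6).

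The members and the 72 gene lists were chosen with earlier results of these data known, 9 of the lists after values were seen. Named genes are up to 4 rises and 4 falls of largest log2 difference per list or class among those called without overlap, all members of lists of 8 or fewer, the 15 largest rises and falls of the whole list, and the 15 rises and 10 falls that were largest among low-FPKM features with 0.1 added. Genes named for their position, as an antisense pair, to complete a count or as an exception were chosen after their values were seen. Alternatives were another pseudocount, a low-value filter, centring, a replicate block, no trend, groups by the description text, and leaving out libraries. Some genes that the rule would name are not reported here.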

Additional observations from a re-analysis of the deposited data

How the results depend on the processing

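Against 884 calls (714 higher, 170 lower), adding 0.1 in place of 1 gave 729 and 173, and fitting without the trend gave 637 and 150. Requiring 1 FPKM in 3 libraries left 572 features, of which 570 were called (455 higher); this filter removes the low-FPKM features, so it gives no count for them. Leaving out 1 library gave 706 to 856 calls, 584 to 708 higher and 122 to 167 lower, and 220 to 299 low-FPKM calls against 316. Without Control replicate 3 and DSS replicate 3, 98 features were lower and 190 low-FPKM features were called. With groups by the description text (Control replicate 3 counted as DSS, DSS replicate 3 left out) 8 were called, 3 higher and 5 lower, and 1 was low-FPKM. The cause was not tested. With replicate number as a replicate block 709 were higher and 163 lower. Correlations of same-numbered libraries, taken on deviations from their group means, were −0.05, −0.00 and 0.07. Whether same-numbered libraries were handled together was not tested. Centring left 342 calls, 108 of them higher, and 118 low-FPKM calls, because it subtracts 0.65 from every difference. The log2(FPKM + 1) scale compresses low values, so differences of low-FPKM features can be smaller than that shift. A sign below 0 after centring then does not mean fewer FPKM in DSS. With 0.1 in place of 1, the median was 1.24 for protocadherin beta genes, 1.19 for adhesion molecules and 1.21 over all features. After centring, these named genes had the opposite sign: Ccr3 −0.332, Cpa3 −0.0121, Cyp26b1 −0.288, Dio3os −0.0631, Evx1 −0.193, Evx1os −0.354, Gm16401 −0.229, Il2ra −0.14, Kcnip3 −0.0393, Marco −0.0057, Mmp12 −0.367, Mmp27 −0.204, Pcdhb13 −0.311, Pcdhb16 −0.322, Pcdhb3 −0.412, Pcdhb4 −0.386, Pcdhb5 −0.237, Sele −0.283, Serpina3h −0.371, Zim1 −0.438, all as log2 differences.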
